A study of Homo sapiens with 12 samples.

Results

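The genes of cholesterol and fatty acid synthesis, with the SREBP regulators that control them, were followed in HK-2 cells given a low dose of Ota. A fixed list of 39 genes was read from every probe set whose annotation carried that gene's symbol alone. Of these genes 35 had at least 1 such probe set, 78 probe sets in all, among 19775 genes named on the array. The sterol group held 20 listed genes, the fatty acid group 10 and the regulator group 9. Each gene was read from its brightest probe set. A filter that asked for log2 values over 4 on 3 arrays or more kept 34 of the 35 genes, and 10699 genes in all. Each of the 34 was above that value on 12 of 12 arrays, so none entered through 1 group alone.

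HK-2 is an immortalised line derived from human kidney tubule. The 4 groups, each of 3 arrays labelled as biological replicates, were Ota at 72 h, vehicle control at 72 h, Ota at 24 h and vehicle control at 24 h. All groups shared a medium of DMEM and Ham's F12 supplemented with EGF, hydrocortisone, insulin, transferrin and selenite, and exposure began near confluency. The labels call the dose low, give no concentration, leave the name Ota unexplained (ochratoxin A, a fungal toxin, is commonly shortened to OTA) and do not say whether medium was renewed before 72 h or what the cultures of a group shared. Adjusted p-values, from limma, therefore set each difference against the spread between these samples.

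Cells make cholesterol from acetyl-CoA through mevalonate, the isoprenoid diphosphates, squalene and a series of sterol intermediates. The transcription factor SREBP-2, encoded by SREBF2, acts mainly on the sterol genes, and SREBP-1, encoded by SREBF1, mainly on the fatty acid genes. When membrane cholesterol is low, SCAP carries the SREBPs from the endoplasmic reticulum to the Golgi, where proteases release the active factor. When it is high, INSIG proteins hold SCAP back. INSIG1 is itself a target of the pathway, as are most of the enzyme genes described here. The liver X receptors respond to oxysterols and drive SREBF1 and the efflux pump gene ABCA1. Kidney tubule cells use this pathway for their own membranes.

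SREBPs are known to act with NF-Y, which binds CCAAT boxes, so the promoters of 5 of these genes are shown: 2 sterol enzyme genes that rose at 72 h, INSIG1, SREBF2, and TM7SF2, the sterol gene that went the other way. They are the 250 bases before the RefSeq start (GRCh38.p14), written 5′ to 3′ on the gene's strand. FDPS lies at chr1:155308616-155308865 (+), LSS at chr21:46228775-46229024 (-), INSIG1 at chr7:155297628-155297877 (+), SREBF2 at chr22:41832855-41833104 (+) and TM7SF2 at chr11:65111622-65111871 (+). Capitals mark CCAAT or its reverse complement in all 5, TCACNCCAC (the core of a sterol regulatory element) in SREBF2 and CACGTG (an E-box) in INSIG1.
FDPS: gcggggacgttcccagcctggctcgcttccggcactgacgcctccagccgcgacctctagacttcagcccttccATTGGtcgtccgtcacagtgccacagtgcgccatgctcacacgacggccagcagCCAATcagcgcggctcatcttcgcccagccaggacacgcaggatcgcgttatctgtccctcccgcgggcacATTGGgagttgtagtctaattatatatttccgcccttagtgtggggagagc
LSS: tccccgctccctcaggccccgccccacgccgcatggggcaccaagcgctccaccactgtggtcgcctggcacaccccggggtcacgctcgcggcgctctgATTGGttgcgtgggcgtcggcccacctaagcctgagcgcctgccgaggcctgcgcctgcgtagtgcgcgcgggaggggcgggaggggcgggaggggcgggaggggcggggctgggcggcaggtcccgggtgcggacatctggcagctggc
INSIG1: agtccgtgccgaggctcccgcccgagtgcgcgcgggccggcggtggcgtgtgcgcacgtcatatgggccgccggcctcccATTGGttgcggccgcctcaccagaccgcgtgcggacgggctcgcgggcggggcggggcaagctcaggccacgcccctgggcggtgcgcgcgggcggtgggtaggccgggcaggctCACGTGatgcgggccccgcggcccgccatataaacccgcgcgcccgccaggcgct
SREBF2: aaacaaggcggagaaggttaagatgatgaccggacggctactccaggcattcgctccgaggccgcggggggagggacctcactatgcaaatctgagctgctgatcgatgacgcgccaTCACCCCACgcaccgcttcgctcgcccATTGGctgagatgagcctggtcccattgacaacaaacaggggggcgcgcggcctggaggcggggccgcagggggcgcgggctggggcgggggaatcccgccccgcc
TM7SF2: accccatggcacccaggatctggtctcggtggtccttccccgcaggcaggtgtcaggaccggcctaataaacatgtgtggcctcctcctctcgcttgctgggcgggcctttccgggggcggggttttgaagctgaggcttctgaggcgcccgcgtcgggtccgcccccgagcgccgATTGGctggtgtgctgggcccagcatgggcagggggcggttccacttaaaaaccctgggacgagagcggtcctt
FDPS held 3 CCAAT boxes, whose first base lay 176, 122 and 51 bases upstream of the start, and LSS held 1 at 150 bases. INSIG1 had a CCAAT box at 170 bases and an E-box at 55 bases. SREBF2 had the sterol element at 133 bases and a CCAAT box at 106 bases, and TM7SF2 had a CCAAT box at 74 bases. RefSeq windows were found for 35 of the 39 genes. On either strand, CCAAT was present in 23 of these 35 genes (65.7%), against 37.0% of 27305 genes with such windows. A gene can have several windows, and by window CCAAT was present in 27 of 52 (51.9%), against 32.0% of 35116. It was present in 14 of 17 sterol genes and 5 of 9 fatty acid genes. TCACNCCAC was present in 1 of 35 (2.86%), against 1.09% of all genes, and CACGTG in 5 of 35 (14.3%), against 7.73%. A gene was counted where any of its windows held the letters, no matches overlapped in the 5 windows shown, and a match is a description of letters and not a bound site. Only these letters were searched, so a window without TCACNCCAC is not shown to lack a sterol regulatory element of another form.

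Arrays of 1 group correlated at r = 0.986 to 0.994. Of 8 proximal tubule markers 0 were above a log2 value of 4 (highest mean 3.36), so these levels do not identify the labelled proximal tubule cell by its transporters, while 5 of 5 epithelial markers were above it. No endothelial, leukocyte or hepatocyte marker was above it. Of 4 fibroblast markers COL1A1 and DCN were, and COL1A2 and PDGFRB were not. The log2 of the 4 markers' summed level ranged from 10.82 to 11.35 in Ota and 9.81 to 10.47 in control cells at 72 h, and from 11.48 to 11.99 in Ota and 11.41 to 12.18 in control cells at 24 h. DCN was higher by 1.09 ± 0.29 at 72 h (adjusted p = 0.0141) and COL1A1 was at 0.23 ± 0.21 (adjusted p = 0.454). Of the 5 epithelial markers 2 fell (40%) and 0 rose at each time, beside 14.9% of all genes that fell at 72 h and 21.6% at 24 h. At 72 h CDH1 and KRT18 fell by 1.11 ± 0.23 and 0.87 ± 0.11, and KRT19 was at 0.32, EPCAM at 0.04 and KRT8 at -0.25. At 24 h KRT18 and KRT19 fell by 0.39 ± 0.11 and 0.41 ± 0.13, and EPCAM was at 0.29, KRT8 at -0.19 and CDH1 at -0.50. The log2 of their summed level ranged from 14.38 to 14.54 in Ota and 14.59 to 14.64 in control cells at 72 h, and from 14.22 to 14.43 in Ota and 14.32 to 14.56 in control cells at 24 h. The part of these markers in the results was not tested, and in bulk RNA fewer cells of a type and less RNA per cell cannot be told apart. The log2 difference of the 3′ and 5′ actin probe sets was 1.28 ± 0.08 in Ota and 1.18 ± 0.17 in control cells at 72 h, and 1.17 ± 0.12 in Ota and 1.01 ± 0.21 in control cells at 24 h (SD, n = 3).

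At 72 h most of the pathway stood higher in Ota than in control cells. Of the 34 genes 18 rose (52.9%), 1 fell and 15 did not pass, beside 17.1% of all genes tested that rose and 14.9% that fell. The median log2 difference was 0.52, beside 0.01 over all genes. At 24 h the picture was different: 7 fell (20.6%), 0 rose and 27 did not pass, beside 21.6% of all genes that fell and 9.44% that rose, with a median of -0.15 beside -0.06. With the replicate number as a block, 13 of 34 (38.2%) were lower and 2 higher at 24 h, beside 24.2% of all genes that were lower and 11.4% that were higher, so the count at 24 h depended on the block. In 23 of 34 genes the 3 Ota arrays did not overlap the 3 control arrays at 72 h, beside 51.4% of all genes, and in 11 of 34 at 24 h, beside 42.7%.

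**Figure D1:**
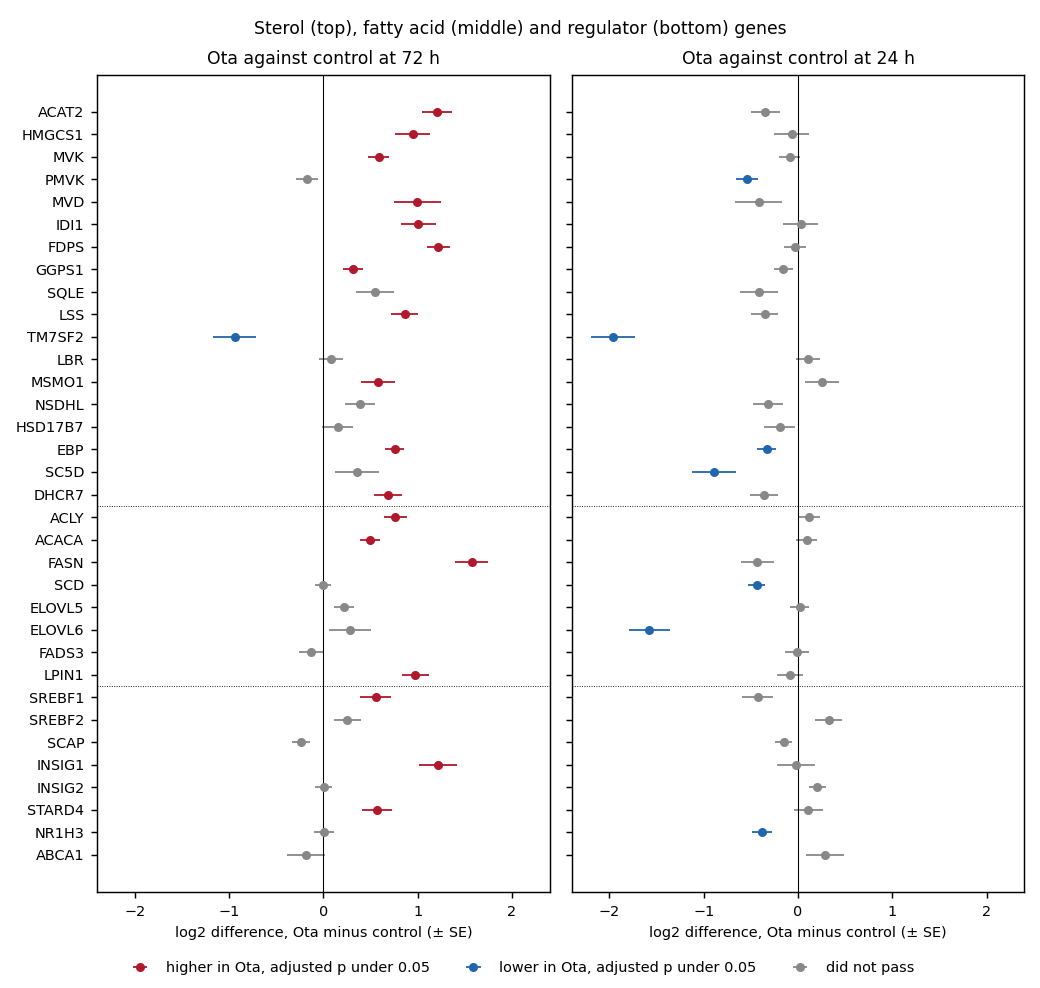
Log2 difference between Ota and control cells (x axis, ± SE, 3 arrays per group) for each of the 34 genes, at 72 h on the left and 24 h on the right, with red for genes that were higher and blue for genes that were lower at an adjusted p under 0.05. At 72 h 18 of 34 are red and TM7SF2 is blue, and at 24 h 7 are blue and none is red.

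Most of the mevalonate and isoprenoid genes rose. At 72 h 7 of 8 were higher in Ota cells (87.5%) and 0 lower, beside 17.1% and 14.9% of all genes, with a median of 0.97. ACAT2, which encodes the thiolase that joins acetyl-CoA units, had log2 values of 11.41, 10.97 and 11.45 in Ota cells at 72 h, against 10.16, 9.97 and 10.10 in control cells. Every Ota array lay above every control array, and the rise was 2.30-fold (1.20 ± 0.16, adjusted p = 0.000229). FDPS, the farnesyl diphosphate synthase gene at the branch between sterols and protein prenylation, had 13.08, 12.67 and 13.09 in Ota cells against 11.73, 11.59 and 11.86 in control cells at 72 h. It had the smallest p of the 34 genes, with a rise of 2.33-fold (1.22 ± 0.12, adjusted p = 3.57e-05). IDI1, the isopentenyl diphosphate isomerase gene, rose 2.01-fold, MVD, the mevalonate decarboxylase gene, 1.99-fold and HMGCS1, the HMG-CoA synthase gene, 1.93-fold. MVK, the mevalonate kinase gene, rose 1.50-fold. GGPS1, which makes the geranylgeranyl donor, rose 1.24-fold (adjusted p = 0.0397), a call lost in 9 of 16 alternative settings and without any 1 of the 6 arrays (0.26 to 0.35). Read from other probe sets, once those of the _s_at and _x_at kinds were left out, IDI1 was at 0.46 and MVK at 0.31, and neither passed. The exception was PMVK, the phosphomevalonate kinase gene, at -0.18 (adjusted p = 0.27).

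At 24 h the same 8 genes had a median of -0.12, and only PMVK passed (12.5% lower, beside 21.6% of all genes). With the replicate number as a block ACAT2 was called lower as well. PMVK had 7.22, 7.15 and 7.45 in Ota cells at 24 h, against 7.98, 7.70 and 7.76 in control cells, without overlap. It fell by 0.54 ± 0.11 (adjusted p = 0.00421). ACAT2 was at -0.35 (adjusted p = 0.121) and FDPS at -0.03 (adjusted p = 0.866), with FDPS arrays at 12.54, 12.44 and 12.50 in Ota cells and 12.57, 12.47 and 12.54 in control cells. FDPS thus had overlapping groups at 24 h and separate ones at 72 h.

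Among the 10 measured genes from squalene to cholesterol, 4 were higher, 1 was lower and 5 did not pass at 72 h (median 0.47). These are 40% higher and 10% lower, beside 17.1% and 14.9% of all genes. EBP, the sterol isomerase gene, had 11.42, 11.04 and 11.35 in Ota cells at 72 h, against 10.49, 10.55 and 10.50 in control cells. It rose 1.69-fold (0.75 ± 0.10, adjusted p = 0.000229), and the control arrays lay within a much narrower range than the Ota arrays. LSS, the lanosterol synthase gene that closes the sterol rings, had 10.43, 9.99 and 10.60 in Ota cells at 72 h, against 9.54, 9.36 and 9.53 in control cells. It rose 1.82-fold (0.86 ± 0.14, adjusted p = 0.00103). DHCR7, which encodes the last reductase of 1 branch, rose 1.60-fold (adjusted p = 0.00537) and MSMO1, a methylsterol oxidase gene, 1.49-fold (adjusted p = 0.0293). The MSMO1 call was lost without Ota replicate 1 or 3 or any control array at 72 h, with values of 0.50 to 0.60. SQLE, the squalene epoxidase gene, was at 0.55 (adjusted p = 0.0597), NSDHL at 0.39 (adjusted p = 0.0825), SC5D at 0.36 (adjusted p = 0.272) and HSD17B7 at 0.15 (adjusted p = 0.524).

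At 24 h 3 of these 10 fell (30%, beside 21.6% of all genes): TM7SF2, SC5D and EBP. SC5D, a sterol desaturase gene, had 9.31, 8.92 and 9.69 in Ota cells at 24 h, against 10.15, 9.94 and 10.51 in control cells, and fell by 0.89 ± 0.23 (adjusted p = 0.0126). EBP had 11.07, 11.01 and 11.05 in Ota cells, against 11.41, 11.34 and 11.39 in control cells, and fell by 0.33 ± 0.10 (adjusted p = 0.0243). In both genes no Ota array reached a control array. The EBP call was lost in 7 of 16 alternative settings, among them without any 1 Ota array or control replicate 1 or 3 (-0.35 to -0.32) and with its probe sets averaged (-0.16). SC5D was at -0.70 without Ota 24 h replicate 2 and at -0.18 with its probe sets averaged, and passed in neither, and its probe set 215064_at was at 0.53.

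TM7SF2 encodes a sterol reductase of the endoplasmic reticulum, and LBR, a receptor of the inner nuclear membrane, carries the same enzyme activity. TM7SF2 had 7.83, 7.30 and 7.65 in Ota cells at 72 h, against 8.69, 8.34 and 8.58 in control cells. At 24 h it had 6.55, 5.90 and 6.12 in Ota cells, against 8.05, 8.63 and 7.76 in control cells. The Ota arrays were below all control arrays at both times. It was 1.92-fold lower at 72 h (-0.94 ± 0.23, adjusted p = 0.00936) and 3.89-fold lower at 24 h (-1.96 ± 0.23, adjusted p = 9.54e-05, 95% interval -2.47 to -1.46). Both calls held in each of 15 settings, with values of -1.06 to -0.80 at 72 h and -2.16 to -1.72 at 24 h. Its single listed probe set, of the _s_at kind, was its only reading, so it had no value in the setting without that kind.

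The other 17 sterol genes gave 11 higher (64.7%) and 0 lower at 72 h, beside 17.1% and 14.9% of all genes, with a median of 0.59. At 24 h they gave 0 higher and 3 lower (17.6%), beside 9.44% and 21.6% of all genes, with a median of -0.32. LBR had 11.44, 11.21 and 11.22 in Ota cells at 72 h, against 11.16, 11.43 and 11.04 in control cells, and the groups overlapped. At 24 h it had 11.52, 11.58 and 11.64 in Ota cells, against 11.53, 11.27 and 11.64 in control cells, again with overlap. Its differences were 0.08 ± 0.12 at 72 h (adjusted p = 0.663, 95% interval -0.19 to 0.35) and 0.10 ± 0.12 at 24 h (adjusted p = 0.578, 95% interval -0.17 to 0.38). With every gene centred on its own 12-array mean, TM7SF2 lay at 0.21, -0.31 and 0.03 in Ota cells at 72 h, and the median of the other sterol genes at 0.59, 0.18 and 0.67. In control cells at 72 h TM7SF2 lay at 1.08, 0.72 and 0.96 and the others at -0.14, -0.30 and -0.14. At 24 h TM7SF2 lay at -1.07, -1.72 and -1.50 in Ota cells, with the others at -0.17, -0.34 and -0.02, and at 0.43, 1.02 and 0.14 in control cells, with the others at 0.14, -0.11 and 0.09. TM7SF2 was thus below the median of the others on each Ota array and above that median on each control array at both times. Single genes among the others were not compared with it in this way. Centring places a gene that is lower in Ota cells low there and high in control cells, so this restates its fall. TM7SF2 was singled out with these values known, so the contrast with the others is a description.

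**Figure D2:**
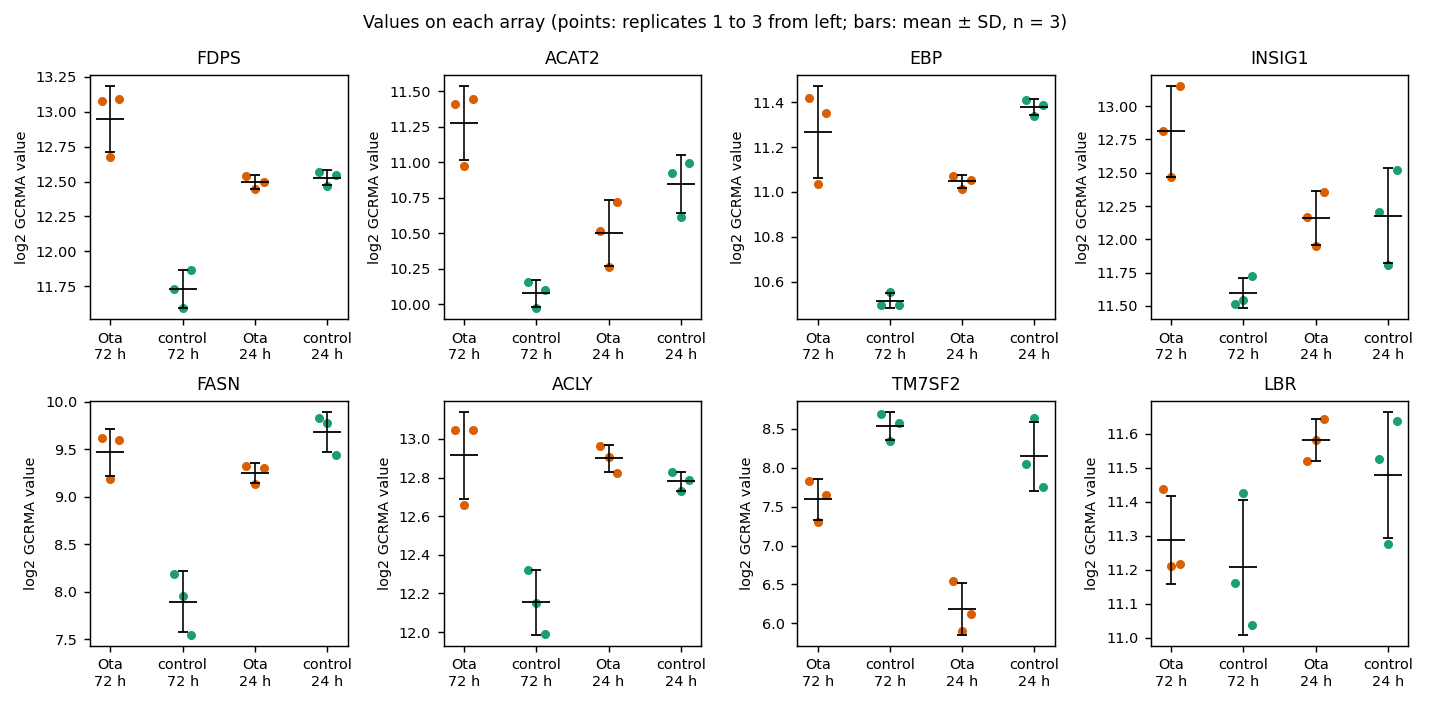
Log2 GCRMA values (y axis, 1 scale per gene) of 8 genes on every array, with Ota left of control at 72 h and then at 24 h, points for the 3 replicates and bars for the mean ± SD. FDPS, ACAT2, EBP, INSIG1, FASN and ACLY have all 3 Ota arrays above the control arrays at 72 h, TM7SF2 has them below at both times, and LBR overlaps at both times.

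The fatty acid group had 8 measured genes above the filter. At 72 h 4 rose (50%) and 0 fell, beside 17.1% and 14.9% of all genes, with a median of 0.39. At 24 h 2 fell (25%) and 0 rose, beside 21.6% and 9.44% of all genes, with a median of -0.05. FASN, the fatty acid synthase gene, had 9.62, 9.19 and 9.60 in Ota cells at 72 h, against 8.18, 7.95 and 7.55 in control cells. The lowest Ota array was about a log2 unit above the highest control array, and the rise of 2.97-fold (1.57 ± 0.17, adjusted p = 8.37e-05) was the largest of the 34 genes. ACLY, which makes cytosolic acetyl-CoA from citrate, had 13.05, 12.66 and 13.04 in Ota cells at 72 h, against 12.32, 12.15 and 11.99 in control cells, and rose 1.69-fold (0.76 ± 0.12, adjusted p = 0.000773). LPIN1, a phosphatidate phosphatase gene of glycerolipid synthesis, had 9.81, 9.55 and 10.18 in Ota cells at 72 h, against 8.83, 8.92 and 8.86 in control cells, and rose 1.97-fold (0.98 ± 0.14, adjusted p = 0.000424). ACACA, the acetyl-CoA carboxylase gene, rose 1.41-fold (0.49 ± 0.11, adjusted p = 0.00504), but was at 0.19 and did not pass with its probe sets averaged. In each of these 4 genes the Ota arrays were separate from the control arrays at 72 h.

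The desaturase and elongase genes gave no call at 72 h on their brightest probe sets. SCD, the stearoyl-CoA desaturase gene, had 13.71, 13.53 and 13.57 in Ota cells at 24 h, against 14.15, 14.03 and 13.95 in control cells, and fell by 0.44 ± 0.09 (adjusted p = 0.00302). At 72 h SCD was at -0.01 (adjusted p = 0.971), with 13.97, 13.87 and 13.98 in Ota cells and 13.98, 13.85 and 14.00 in control cells. ELOVL6, which elongates palmitate, had 7.85, 7.06 and 7.80 in Ota cells at 24 h, against 9.07, 8.90 and 9.47 in control cells. It was 2.98-fold lower at 24 h (-1.58 ± 0.22, adjusted p = 0.000292) and at 0.28 at 72 h (adjusted p = 0.357) on this probe set, and another of its probe sets went the opposite way. ELOVL5 was at 0.22 (adjusted p = 0.124) and FADS3 at -0.13 (adjusted p = 0.472) at 72 h. FADS2, a desaturase gene, had group means of 2.80 to 2.81 and was not above the filter on any array. FADS1 and CYP51A1 had only probe sets with several symbols, FDFT1 and NR1H2 had none listed under their symbol in the annotation used here, and these 4 were not analysed here.

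The sterol and fatty acid groups shared a direction at 72 h, and their counts over time went apart. At 72 h 11 of 18 sterol genes rose (61.1%) while TM7SF2 fell, and their median was 0.58, beside 4 of 8 fatty acid genes and a median of 0.39. Over all genes 17.1% rose. Without _x_at and _s_at probe sets the sterol and fatty acid counts were 6 and 2, over fewer genes, with medians of 0.61 and 0.28. ACAT2, PMVK, MVD, HSD17B7, DHCR7, TM7SF2, ACLY, FASN and SCD had only such probe sets, and so no value in that setting. Of all 7990 genes tested in it, 1527 rose. In Ota cells, 15 of 18 sterol genes were higher at 72 h than at 24 h (median 0.69), beside 3 of 8 fatty acid genes (median 0.15) and 22.2% of all genes. The sterol count was 10 without Ota 72 h replicate 1 or 3 and 6 without _x_at and _s_at probe sets. The last of these settings left fewer genes in both groups, and 1679 of its 7990 genes were higher. The fatty acid count was 1 without Ota 24 h replicate 2, without those probe sets, with probe sets averaged (median 0.04) and with all arrays set to 1 common median (median 0.02, with 1 lower). In control cells, 5 of 8 fatty acid genes were lower at 72 h than at 24 h (62.5%, median -0.46), beside 4 of 18 sterol genes (22.2%, median -0.17) and 23.6% of all genes. No test of the difference between the groups was made.

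FASN and SQLE show these courses. FASN in control cells averaged 7.89 ± 0.32 at 72 h and 9.68 ± 0.21 at 24 h (SD, n = 3), a fall of 3.45-fold (-1.79 ± 0.17, adjusted p = 1.15e-05). In Ota cells it averaged 9.47 ± 0.24 at 72 h and 9.25 ± 0.11 at 24 h (0.21, adjusted p = 0.375). ACLY and ACACA likewise fell in control cells over time, by 0.63 ± 0.12 and 0.49 ± 0.11 (adjusted p = 0.00132 and 0.00312), and were at 0.02 and -0.09 in Ota cells. SQLE, in contrast, was higher at 72 h than at 24 h in Ota cells by 1.15 ± 0.20 (adjusted p = 0.00168), with 12.88, 12.37 and 12.96 at 72 h against 11.76, 11.19 and 11.81 at 24 h. DHCR7 and SC5D rose in Ota cells over time too, by 1.02 ± 0.15 and 1.13 ± 0.23. FDPS and ACAT2 moved on both sides: in Ota cells they rose by 0.45 ± 0.12 and 0.78 ± 0.16 over time, and in control cells they fell by 0.80 ± 0.12 and 0.77 ± 0.16. In control cells SQLE was at 0.19, SC5D at -0.12 and DHCR7 at -0.03 over time, and none passed. A fall in control cells thus passed for FASN, ACLY and ACACA, a rise in Ota cells for SQLE, DHCR7 and SC5D, and both for FDPS and ACAT2. Other genes did not sort by group. EBP, a sterol gene, fell in control cells by 0.86, and none of its probe sets passed in Ota cells over time (0.17 to 0.27). Of the fatty acid genes, SCD rose in Ota cells (0.33) without a call in control cells. LPIN1 and ELOVL6 passed on both sides, read from their brightest probe sets.

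**Figure D3:**
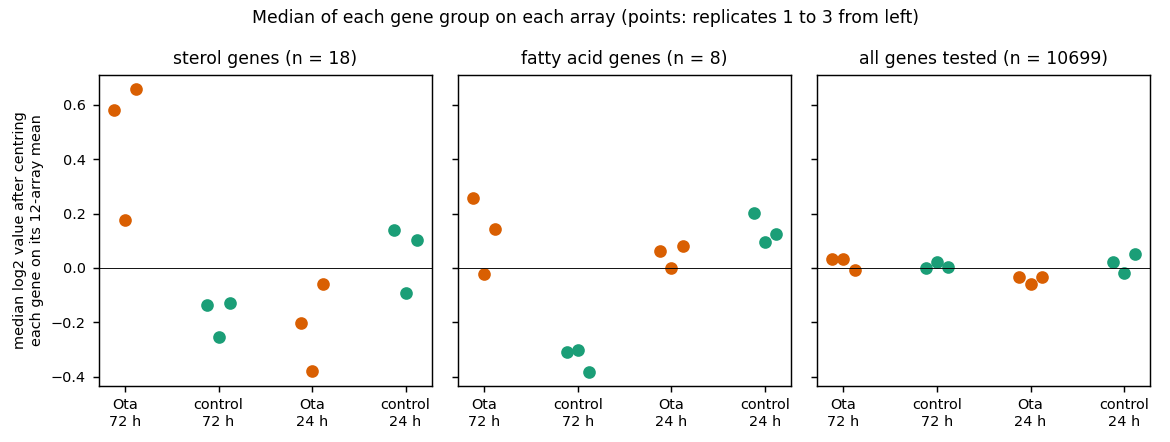
Median over the 18 sterol genes, the 8 fatty acid genes and all 10699 genes on each array (y axis, log2 value after centring each gene on its 12-array mean), with 3 points per group for replicates 1 to 3 from left to right. The sterol median is highest in Ota cells at 72 h, with replicate 2 lowest at 0.18, and the fatty acid median is lowest in control cells at 72 h, at -0.33 ± 0.04.

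Per array, the sterol median averaged 0.47 ± 0.26 in Ota and -0.17 ± 0.07 in control cells at 72 h, and -0.21 ± 0.16 in Ota and 0.05 ± 0.12 in control cells at 24 h (SD, n = 3). The fatty acid median averaged 0.13 ± 0.14 in Ota and -0.33 ± 0.04 in control cells at 72 h, and 0.05 ± 0.04 in Ota and 0.14 ± 0.05 in control cells at 24 h. The median of all genes stayed between -0.04 and 0.02 in the group means. Replicate 2 was the lowest of its 3 arrays in 17 of 18 sterol genes in Ota and 13 in control cells at 72 h, and in 16 in Ota and 14 in control cells at 24 h. Over all genes it was lowest in 33% in Ota and 32.5% in control cells at 72 h, and in 42.3% in Ota and 46% in control cells at 24 h. Without Ota 72 h replicate 2, 18 genes were higher at 72 h, with NSDHL (0.52) and SQLE (0.73) gained and GGPS1 (0.35) and SREBF1 (0.43) lost.

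Same-numbered Ota and control arrays deviated together at 24 h, with correlations of 0.44, 0.32 and 0.45 over all genes. The genes gained as lower at 24 h with the replicate number as a block were ACAT2, SQLE, LSS, NSDHL, DHCR7 and SREBF1, and those gained as higher were SREBF2 and ABCA1. The sterol group then had 9 of 18 lower, beside 24.2% of all genes. Without the block it had 4 of 18 lower, beside 21.6% of all genes. Without the block and without Ota 24 h replicate 2 it had 2, beside 1782 lower of all 10699 genes. It had 1 without the block and without _x_at and _s_at probe sets, beside 1517 lower of 7990 genes. That setting left fewer genes in the group.

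Of the regulators, the 6 SREBP and sterol-sensing genes gave 3 rises (50%) and no fall at 72 h, beside 17.1% and 14.9% of all genes. At 24 h they gave no call without the replicate block. With the block SREBF1 was called lower and SREBF2 higher at 24 h. INSIG1, the retention protein gene and a sensitive target of the pathway, had 12.81, 12.47 and 13.15 in Ota cells at 72 h, against 11.52, 11.55 and 11.73 in control cells, without overlap. It rose 2.32-fold (1.22 ± 0.20, adjusted p = 0.000954). At 24 h it had 12.17, 11.95 and 12.36 in Ota cells, against 12.20, 11.81 and 12.52 in control cells, and was at -0.02 ± 0.20 (adjusted p = 0.954, 95% interval -0.46 to 0.42). SREBF1 had 7.62, 7.90 and 7.46 in Ota cells at 72 h, against 7.03, 7.13 and 7.17 in control cells, and rose 1.47-fold (0.55 ± 0.16, adjusted p = 0.0231). At 24 h SREBF1 had 7.73, 7.98 and 7.39 in Ota cells, against 8.20, 8.30 and 7.89 in control cells, and was at -0.43 ± 0.16 (adjusted p = 0.0675). In control cells SREBF1 was lower at 72 h than at 24 h by 1.02 ± 0.16 (adjusted p = 0.000382), and in Ota cells it was at -0.04. The call at 72 h was lost without Ota replicate 1 or 2 or control replicate 1 or 2, with values of 0.43 to 0.57.

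SREBF2 had 8.42, 8.45 and 8.47 in Ota cells at 72 h, against 8.32, 8.21 and 8.04 in control cells. At 24 h it had 8.56, 8.31 and 8.17 in Ota cells, against 8.26, 8.08 and 7.72 in control cells. Without the replicate block it did not pass at either time (0.25 ± 0.14 with adjusted p = 0.205 at 72 h, 0.33 ± 0.14 with adjusted p = 0.108 at 24 h), although its arrays did not overlap at 72 h. STARD4, which encodes a cytosolic sterol carrier, rose 1.48-fold at 72 h (adjusted p = 0.0174), and did not pass without Ota replicate 3 (0.41) or control replicate 2 (0.46). SCAP was at -0.24 (adjusted p = 0.0687) and INSIG2 at 0.00 (adjusted p = 0.988) at 72 h.

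INSIG2 and STARD4 were higher at 72 h than at 24 h in both kinds of cell, by 0.50 ± 0.09 and 1.33 ± 0.16 in Ota cells and by 0.71 ± 0.09 and 0.87 ± 0.16 in control cells. NR1H3, the gene of a liver X receptor, had 5.94, 5.67 and 5.57 in Ota cells at 24 h, against 6.12, 6.25 and 5.97 in control cells. It fell by 0.38 ± 0.11 at 24 h (adjusted p = 0.0173, a call lost in 6 of 16 alternative settings) and was at 0.00 at 72 h. The arrays whose removal ended the call were Ota replicates 2 and 3 and control replicate 2 (-0.35 to -0.31). ABCA1, the cholesterol efflux pump gene, was at -0.18 at 72 h (adjusted p = 0.526). It was lower at 72 h than at 24 h in Ota cells, by 0.87 ± 0.20 (adjusted p = 0.0075).

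The change of the Ota response between times was tested directly as an interaction. In 21 of 34 genes the difference between Ota and control was greater (more positive) at 72 h than at 24 h, and in 0 it was smaller, beside 15.5% and 5.79% of all genes. The median was 0.69, beside 0.09 over all genes. It was 1.00 in the sterol group (14 of 18 called) and 0.54 in the fatty acid group (5 of 8 called), and FASN had the largest value, 2.00 ± 0.25 (adjusted p = 0.000435). The count over all 34 was 12 without Ota 72 h replicate 1 and 13 with no filter on low values. The sterol count was 7 without Ota 72 h replicate 1, 9 without Ota 24 h replicate 2, Ota 72 h replicate 3 or control 72 h replicate 1 or 2, 6 with no filter and 5 without _x_at and _s_at probe sets. The fatty acid count was 3 without Ota 72 h replicate 1 or 3 and with the common median, and 2 without those probe sets. The setting without them left fewer genes in both groups, with medians of 0.48 and 0.40, beside 1108 higher of all 7990 genes tested. With probe sets averaged the order of the medians turned, to 0.65 in the sterol and 0.88 in the fatty acid group (10 and 4 called). TM7SF2, at 1.02 ± 0.33 (adjusted p = 0.0455), was also in that direction, since its fall was smaller at 72 h, but its call was lost in 12 of 19 settings, with values of 0.77 to 1.10 where an array was left out.

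Over time, control cells had 3 of 34 genes higher and 11 lower at 72 h than at 24 h, beside 22.7% and 23.6% of all genes. The 11 were ACAT2, FDPS, LSS, EBP, ACLY, ACACA, FASN, ELOVL6, LPIN1, SREBF1 and INSIG1, and the 3 were HSD17B7, INSIG2 and STARD4. Ota cells had 21 of 34 higher and 1 lower, beside 22.2% and 9.99% of all genes. These comparisons share arrays with those at 72 h and 24 h, so they are other readings of the same arrays.

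More than 1 probe set above the filter was read for 19 genes, and at 24 h some of their readings went apart. Over the 66 probe sets above the filter, 34 were higher and 1 lower at 72 h, beside 16.4% and 11.8% of 22477 probe sets tested, and 3 were higher and 13 lower at 24 h, beside 12.9% and 18.1%. ELOVL6 fell on 204256_at (-1.58) and 210868_s_at (-1.81, adjusted p = 0.000215) at 24 h, but rose on 227491_at by 1.91 ± 0.14 (adjusted p = 3.80e-06). On 227491_at the arrays read 8.69, 8.58 and 8.72 in Ota cells at 24 h, against 6.93, 6.81 and 6.55 in control cells, without overlap. At 72 h that probe set was higher by 2.27 ± 0.14 and the other two were at 0.28. ELOVL6 was the only 1 of 19 genes with several probe sets that passed in opposite directions at 24 h.

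LSS was at -0.35 on 202245_at at 24 h, while 211018_at read 5.74, 5.93 and 5.42 in Ota cells, against 4.02, 3.99 and 4.63 in control cells. That is a rise of 1.48 ± 0.23 (adjusted p = 0.000665) on a dim probe set near the filter. At 72 h all 3 LSS probe sets rose, by 0.86, 2.57 and 1.25. GGPS1 rose on 202321_at by 0.80 ± 0.19 at 72 h and 0.94 ± 0.19 at 24 h (adjusted p = 0.00834 and 0.0027), against 0.31 and -0.16 on the brighter 202322_s_at, neither of which passed in the fit over probe sets. SC5D fell on 211423_s_at (-0.89, adjusted p = 0.0144) and was at 0.53 on 215064_at (adjusted p = 0.251). ELOVL6, LSS, GGPS1 and SC5D are therefore uncertain in size or direction at 24 h. The readings of SREBF1 (-0.43 and 0.15) and SREBF2 (0.33, 0.26 and -0.24) also differed in sign at 24 h, and none of these passed. SCD, in contrast, fell on all 4 of its probe sets at 24 h, by 0.44 to 1.40, and none passed at 72 h. INSIG1 rose by 1.22 to 1.42 on all 3 of its probe sets at 72 h.

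**Figure D4:**
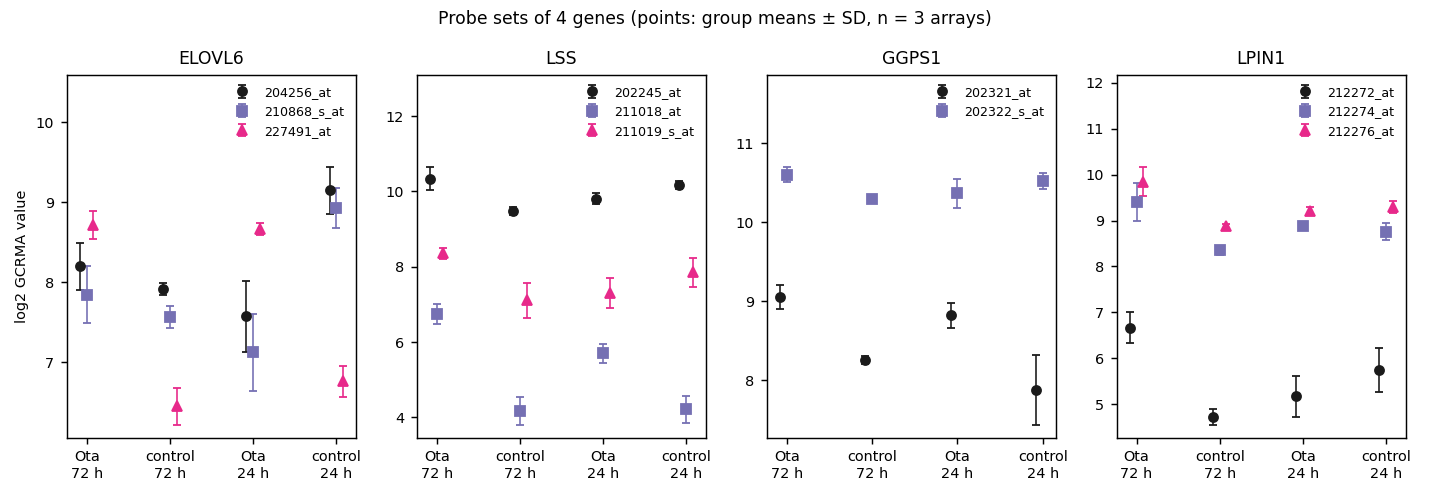
Group means ± SD (n = 3 arrays) of the log2 value (y axis) for each probe set of ELOVL6, LSS, GGPS1 and LPIN1, with Ota left of control at 72 h and then at 24 h. At 24 h 227491_at of ELOVL6 is higher in Ota cells while its other probe sets are lower, and the 3 LPIN1 probe sets are all higher in Ota cells at 72 h.

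A further 37 genes of neighbouring steps (acyl-CoA synthesis, prenylation, sterol transport and storage, glycerolipid synthesis) were read in the same way, and 33 passed the filter. At 72 h 12 rose (36.4%) and 2 fell (6.06%), beside 17.1% and 14.9% of all genes, with a median of 0.16. At 24 h 5 rose (15.2%) and 10 fell (30.3%), beside 9.44% and 21.6% of all genes, with a median of -0.07. ACSS2, which makes acetyl-CoA from acetate, had 10.90, 10.47 and 10.96 in Ota cells at 72 h against 9.60, 9.27 and 9.45 in control cells. At 24 h it had 9.48, 9.33 and 9.61 in Ota cells, against 10.23, 10.09 and 10.30 in control cells. It rose 2.52-fold at 72 h (adjusted p = 6.35e-05) and fell by 0.73 ± 0.14 at 24 h (adjusted p = 0.00224), without overlap at either time. SOAT1, which esterifies cholesterol for storage, rose at both times, 1.81-fold at 72 h and by 0.60 ± 0.09 at 24 h. ACSL4, a long-chain acyl-CoA synthetase gene, rose 2.58-fold at 72 h and was at 0.21 at 24 h (adjusted p = 0.308). PDSS1, which makes the side chain of coenzyme Q, rose 2.38-fold at 72 h and fell by 0.69 ± 0.18 at 24 h (adjusted p = 0.0132). NUS1, of dolichol synthesis, fell by 0.60 ± 0.09 at 72 h (adjusted p = 0.000671) and rose by 0.58 ± 0.09 at 24 h (adjusted p = 0.000736). DGAT1, of triglyceride synthesis, was at -0.18 at 72 h (adjusted p = 0.271) and fell by 0.83 ± 0.12 at 24 h (adjusted p = 0.000358).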

How the data were processed

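Gene expression was measured on 12 Affymetrix arrays, 3 in each of 4 groups. The deposited values are log2 values that the authors computed by GCRMA, according to the submitters' processing notes, with version and settings not given in the sources used here. GCRMA equalises the distribution of arrays, which hides a shift of total RNA, and low values sit on a floor. Precision is limited by the number of arrays.

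Of 54675 probe sets, 62 controls were left out, and 41091 carried 1 gene symbol in the platform annotation (41037 updated through gene IDs with RefSeq, GRCh38.p14). The 1801 with several symbols named no gene. Of a gene's probe sets the one with the highest mean over 12 arrays was used, with a filter of log2 values over 4 on 3 arrays or more. Each of 10699 genes was fitted with 1 mean per group in limma 3.58.1 (R 4.3.3; lmFit and eBayes, 8 residual and 3.307 prior degrees of freedom, Benjamini-Hochberg over all genes, called at adjusted p below 0.05). A second fit covered 22477 probe sets. Errors of differences are SE, those of levels SD. On simulated data for the 24 h comparison over 10699 genes, 34% of changes of 0.5 and 84% of changes of 1 (log2) were recovered, with 7 false calls. Far fewer genes were changed in the simulation than were called at 24 h, and its noise was independent between arrays. The rates therefore check the code and do not give the recovery in the real comparison. Tables were read with pandas 2.3.3 and the R package data.table (1.17.8), and figures drawn with matplotlib 3.10.9 (Python 3.11.15).

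The members and lists were chosen with earlier results of these data known, so no p was adjusted over the members alone and no test was made over them. Every member could be named. Values on every array were given for TM7SF2, LBR, SREBF1, SREBF2, INSIG1 and the 8 members with the smallest adjusted p in each Ota comparison, and, chosen after their values were seen, for SQLE over time and for single probe sets of ELOVL6 and LSS. Of the 37 neighbouring genes the 4 with the smallest p in each were named. Alternatives changed the filter, probe set, scaling, samples in the fit, moderation, replicate block and each array. The replicate numbers were taken from the labels. Same-numbered arrays correlated at 0.44, 0.32 and 0.45 at 24 h, which met the rule for paired samples (every pair over 0.1), and at 0.11, 0.07 and 0.27 at 72 h, which did not. Values and calls are from the fit without the block, and blocked counts stand beside the 24 h result.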

Additional observations from a re-analysis of the deposited data

Results flagged for a closer look

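In 21 genes the Ota response differed between the times by the interaction test in limma, each with a more positive value at 72 h than at 24 h. Values are the log2 response at 72 h minus that at 24 h. Among the mevalonate and isoprenoid genes they were 1.55 for ACAT2, 1.02 for HMGCS1, 0.67 for MVK, 1.42 for MVD, 0.98 for IDI1, 1.25 for FDPS and 0.47 for GGPS1. Among the later sterol genes they were 0.96 for SQLE, 1.21 for LSS, 1.02 for TM7SF2, 0.71 for NSDHL, 1.09 for EBP, 1.25 for SC5D and 1.04 for DHCR7. In the fatty acid group they were 0.64 for ACLY, 2.00 for FASN, 0.43 for SCD, 1.86 for ELOVL6 and 1.06 for LPIN1, and among the regulators 0.98 for SREBF1 and 1.24 for INSIG1. Adjusted p ranged from 0.000435 for FASN to 0.0455 for TM7SF2. The ELOVL6 value is that of its brightest probe set, and its probe set 227491_at was at 0.37 and did not pass. Nor did 213789_at of EBP, at 0.42. No alternative setting read either of these probe sets alone. ACAT2, FDPS, LSS, EBP, DHCR7, FASN, ELOVL6, LPIN1 and INSIG1 passed in each alternative setting run for them. Calls were lost in 1 setting for MVD, MVK and SREBF1, in 2 for HMGCS1 and in 9 to 14 for SQLE, SCD, TM7SF2, NSDHL and GGPS1. HMGCS1 did not pass without Ota 72 h replicate 1 (0.95), and SC5D without Ota 72 h replicate 1 (1.18) or control 72 h replicate 1 (1.15). ACLY did not pass without Ota 72 h replicate 1 or 3 or control 72 h replicate 3 (0.56 to 0.58). IDI1 did not pass without Ota 24 h replicate 1 or 2, Ota 72 h replicate 1 or 3, or control 72 h replicate 2 (0.86 to 0.93). Without _x_at and _s_at probe sets IDI1 was at 0.06 and SC5D at 0.11, and with probe sets averaged they were at 0.47 and 0.68, with no call in either.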

How the results depend on the processing

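Counts below are of member genes called in limma. At 24 h, 0 were higher and 7 lower: 2 were higher with arrays shifted to a common median, 1 with probe sets averaged per gene, and 1 higher and 3 lower without _x_at and _s_at probe sets, which left 25 members. With the replicate block 2 were higher and 13 lower at 24 h, and 1 and 11 in a fit of the 24 h groups alone, added after seeing the data. At 72 h, 18 were higher and 1 lower: 2 were lower with the mean of probe sets, with quantile normalization repeated and with the replicate block, and 11 were higher and 0 lower without _x_at and _s_at probe sets. That last setting left TM7SF2, the gene lower at 72 h, without a value. The replicate block moved no other count by over 1.5 times except the difference of responses, where 1 was lower. For that difference 21 were higher, 13 with no filter and 9 without _x_at and _s_at probe sets. For Ota cells over time 21 were higher and 1 lower: 10 were higher without those probe sets, and 2 were lower with quantile normalization repeated or the compared groups alone, and 3 with the common median. Leaving out each array gave 0 to 1 higher and 5 to 8 lower at 24 h, 14 to 18 higher and 1 lower at 72 h, and 12 to 21 higher and 0 lower for the difference, with 12 without Ota 72 h replicate 1. For Ota cells over time it gave 14 to 22 higher, with 14 without Ota 24 h replicate 2, Ota 72 h replicate 1 or Ota 72 h replicate 3, and 1 lower. For control cells over time it gave 2 to 4 higher and 9 to 13 lower.

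Over all genes, the common median moved the 24 h calls to 1881 higher and 1697 lower, from 1010 and 2307, and their median by 0.12, and the sterol group was then at -0.20 with 3 lower. It moved the calls of the difference to 1164 higher and 1184 lower, from 1659 and 619, with 10 sterol genes higher. Among values with a call in the main or the alternative setting, signs turned for GGPS1 and SC5D at 24 h and for the GGPS1 difference. This was because another probe set was read. GGPS1 at 24 h was at 0.39 with the mean of probe sets and 0.94 without _x_at and _s_at probe sets. Without them SC5D was at 0.53 at 24 h and the GGPS1 difference at -0.14. Of the single-gene values under alternatives, 1575 kept their side of the threshold, 120 lost a call and 39 gained one. Another 4 turned in sign with a call in the main or the alternative setting. Values without a call in either were counted as kept even where their sign changed, as for IDI1 at 24 h (-0.11 to 0.40). Calls at 72 h lost most often were GGPS1 (9 settings), MSMO1 (6) and SREBF1 (5).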
